A study of Manihot esculenta with 44 samples.

Results

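The cassava homologues of SPL3, SPL4 and SPL5 were followed in leaves through the growing season at a site where the plants did not flower and at a site where they flowered. They are 3 of the 34120 gene IDs in the deposited tables: MANES_03G106900, whose closest Arabidopsis protein in the deposited annotation is SPL5, MANES_16G029900 (SPL3) and MANES_13G144400 (SPL4). They were picked as genes of the plant age pathway with their values of late May already known, so the late May difference between the sites is described below and not tested. All 3 passed the filter on low values, and each has a single transcript in the tables. A further gene, MANES_17G047500, also has SPL3 as its closest Arabidopsis protein. It was not among the genes picked, although the gene list that holds it was chosen with earlier results of these data known. It is called the second SPL3 homologue below.

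SPL genes encode plant transcription factors with a conserved DNA-binding domain, the SBP box. In Arabidopsis the small members SPL3, SPL4 and SPL5 are held down by the microRNA miR156, which is abundant in young shoots and declines as the shoot ages. As it declines, SPL proteins accumulate, the plant enters its adult phase and floral genes such as FUL, AP1 and LFY are switched on. These roles are known from Arabidopsis, and mature microRNAs were not analysed here.

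All plants were of KU50, a cassava variety widely grown in Southeast Asia, raised from lignified stem cuttings in the open, without a transgene or a treatment. The Hanoi plants stood in a general field and did not flower, and the Bac Kan plants stood in a mountainous area and flowered. Hanoi was sampled on 24 May, 13 July, 7 August and 10 October 2019, and Bac Kan on 31 May, 29 June, 26 July, 15 August, 11 September, 5 October and 30 October 2019, with 4 leaf libraries per date. Each site is 1 field in 1 season, so site, altitude, weather and flowering cannot be told apart. Date pairs below are matched by calendar date alone, and plant age, leaf age and hour of sampling did not enter. The sources used here do not say if the 4 libraries of 1 date stand for 4 plants. The p-values therefore measure the spread between these libraries.

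The 16 Hanoi and 28 Bac Kan libraries gave FPKM, fragment counts divided by transcript length and by library size, which summed to between 664145 and 804362 per library. Each library was rescaled to a total of 1000000, and "level" below means that rescaled FPKM, which is per length and can be set side by side between genes. Between 18275 and 19777 genes stood at 1 or more in a library. Read totals are not in the tables, so no counting error can be given, and a relative depth read from the spacing of low values ran from 0.701 to 1.48. Leaf mesophyll markers were high throughout, summing to between 10590 and 40570 over 13 genes, 1 of them at 0 in all libraries. Their sums were apart between the sites in July, at 31680 to 40570 in Hanoi and 24120 to 28980 in Bac Kan, and in October, at 20100 to 24590 and 11940 to 17220. Within Bac Kan they summed to 18780 to 24420 on 29 June and to 10590 to 12640 on 30 October. The part of these sums in the July and October differences below, and in the changes within each site, was not tested. Markers of meristem and dividing tissue summed to between 4.59 and 36.2 over 31 genes, of which 16 to 22 were at 0 in all 4 libraries of a date. In bulk leaves, fewer cells that express a gene and less RNA per cell cannot be told apart.

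SPL5 was the most variable of the 3. In Hanoi it stood at 608, 995, 917.5 and 717 in the 4 libraries of 24 May, with a mean of 809 ± 178 (SD, n = 4), which placed it between ranks 99 and 202 of the 34120 genes. On 13 July it stood at 173, 160, 299.6 and 222, and on 7 August at 68.9, 47.5, 46.1 and 79.0. On 10 October it stood at 4.23, 6.46, 7.65 and 8.49. Each Hanoi date lay wholly below the one before it. From the late May mean to the October mean of 6.71 ± 1.85 (SD, n = 4) the level differed 120.7-fold, and from 13 July to 10 October 31.9-fold.

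The fall of SPL5 in Hanoi after the first date was tested. The dates compared leave out late May, although the late May libraries entered the fit and its shared estimate of the spread. Between 13 July and 10 October the log2 level dropped by 4.79 ± 0.35 (SE; limma with Benjamini-Hochberg adjustment over 23405 genes, two-sided, adjusted p = 3.37e-13). In that comparison 30.8% of all genes tested were called, that is, had an adjusted p under 0.05, and 8.8% were called lower. The test over the 3 Hanoi dates from July on gave an adjusted p of 1.2e-12, against 33.2% of all genes called.

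In Bac Kan SPL5 had no such high start. It stood at 43.7, 30.3, 44.1 and 43.7 on 31 May and at 13.7, 34.9, 40.0 and 47.3 on 29 June, and these dates overlapped. On 26 July it stood at 72.9, 84.5, 65.3 and 84.1, above every other Bac Kan library. It was back at 23.4, 19.4, 15.5 and 33.6 on 15 August, below all libraries of 26 July and overlapping those of 31 May and 29 June. The later dates gave 10.8, 36.5, 25.9 and 12.5 on 11 September, 19.1, 29.7, 15.4 and 22.9 on 5 October, and 10.8, 5.74, 20.4 and 4.65 on 30 October. These last 3 dates overlapped one another. The test over the 6 Bac Kan dates from 29 June on gave an adjusted p of 6.93e-07 (limma, Benjamini-Hochberg), against 40.8% of all genes called. Between 29 June and 30 October the log2 level fell by 1.69 ± 0.35 (SE, adjusted p = 0.00041), where 21.5% of genes were called and 9.11% called lower, although the libraries of these dates overlapped.

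**Figure D1:**
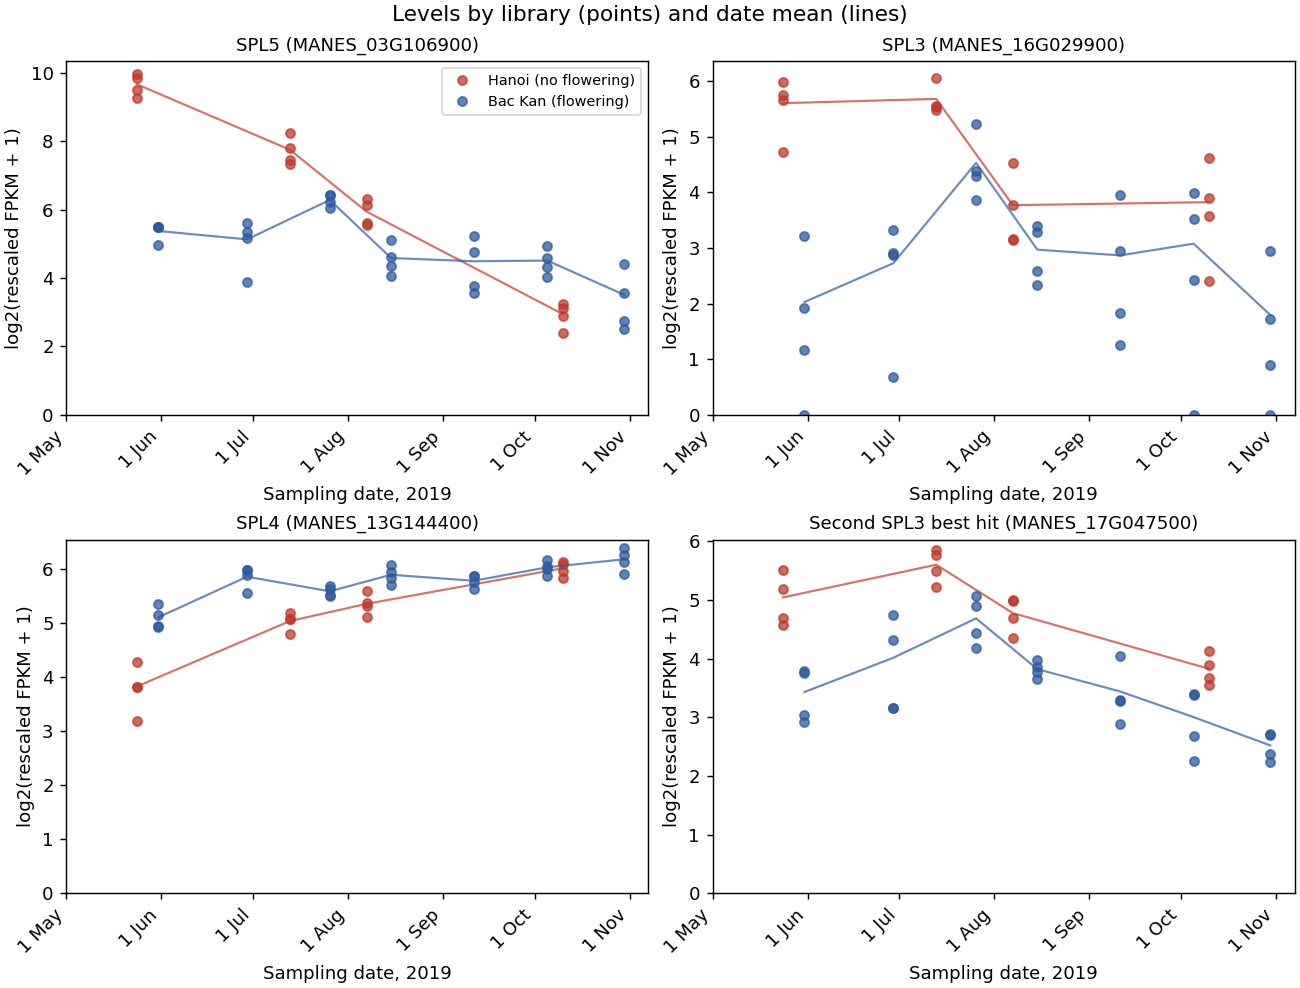
Levels of the 3 homologues and of the second SPL3 homologue, as log2(rescaled FPKM + 1), against sampling date in 2019. Points are single libraries, 4 per date and site, and lines join the date means. SPL5 starts far higher in Hanoi, with a late May mean of 809 against 40.4 in Bac Kan, and ends lower there, with an October mean of 6.71 against 21.8 on the nearest Bac Kan date, while SPL4 climbs in Hanoi from a late May mean of 13.2 to 63.5 in October.

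Set against the nearest Bac Kan date, SPL5 was higher in Hanoi in late May, July and August and lower there in October. The late May libraries lay 20.01-fold apart by their means and did not overlap, which is the difference that chose the gene. In July the means were 213.7 ± 63.3 in Hanoi and 76.7 ± 9.29 in Bac Kan (SD, n = 4 each), and no library of one site reached those of the other. The Hanoi mean was 2.79-fold that of Bac Kan, a log2 difference, Bac Kan minus Hanoi, of -1.43 ± 0.35 (SE, limma, adjusted p = 0.00627), where 8.84% of all genes were called and 3.66% called lower. In August the means were 60.4 ± 16.2 and 23.0 ± 7.78, again without overlap, a log2 difference of -1.37 ± 0.35 (SE, limma, adjusted p = 0.00534), where 14.5% were called and 8.11% called lower.

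In October the order was the other way round. SPL5 averaged 21.8 ± 6.12 on 5 October in Bac Kan and 6.71 ± 1.85 on 10 October in Hanoi (SD, n = 4 each), and the lowest Bac Kan library, at 15.4, stood above the highest Hanoi library, at 8.49. The Bac Kan mean was 3.25-fold that of Hanoi, a log2 difference of 1.56 ± 0.35 (SE, limma, adjusted p = 0.000871), where 24.2% of genes were called and 10.5% called higher in Bac Kan. The change of the site difference over the July, August and October pairs was itself past the threshold (F test with 2 degrees of freedom, limma, adjusted p = 1.3e-05), as it was for 18.9% of all genes. Averaged over these 3 pairs the difference of -0.41 ± 0.20 was not called (adjusted p = 0.142), while 24.8% of all genes were called and 13.4% called lower. The dates of a pair differed by 13 days (July), 8 days (August) and 5 days (October, Bac Kan first). Relative depth in the October pair was 0.754 to 0.893 for Bac Kan against 1.22 to 1.48 for Hanoi, and the part of this in the October values was not tested.

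Ordered by mean, SPL5 was highest on 24 May in Hanoi, then on 13 July in Hanoi, and the libraries of each of these dates stood clear of the next. Bac Kan on 26 July and Hanoi on 7 August came next and overlapped, and the latter stood clear of the group after it. Below that all neighbours in the order overlapped, down to Hanoi on 10 October, the lowest of the 11 groups.

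SPL4 went the other way from SPL5. In Hanoi it stood at 18.5, 13.0, 13.1 and 8.11 on 24 May and at 35.5, 32.6, 32.5 and 26.7 on 13 July. It reached 47.0, 40.3, 38.7 and 33.6 on 7 August and 69.0, 61.4, 67.4 and 56.2 on 10 October. Every Hanoi library of October was above every library of the 3 earlier dates, and the means of the first and last dates differed 4.82-fold. Between 13 July and 10 October the mean rose from 31.8 ± 3.71 to 63.5 ± 5.85 (SD, n = 4 each), 2.00-fold, and the log2 level rose by 0.98 ± 0.15 (SE, limma, adjusted p = 3.97e-06), where 22% of all genes were called higher.

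In Bac Kan SPL4 was already at 30.0, 29.4, 39.6 and 34.5 on 31 May, above all 4 Hanoi libraries of 24 May, 2.53-fold by the means. It stood at 57.9, 45.7, 62.0 and 62.0 on 29 June, at 44.4, 50.7, 44.8 and 48.2 on 26 July, and at 66.0, 55.8, 51.1 and 60.7 on 15 August. The libraries of 29 June overlapped those of both later dates, and 26 July lay wholly below 15 August. Later libraries gave 57.3, 57.4, 48.3 and 52.8 on 11 September, 65.7, 71.2, 57.5 and 63.0 on 5 October and 59.2, 82.3, 68.6 and 75.3 on 30 October, the group with the highest mean. The test over the Bac Kan dates from 29 June on gave an adjusted p of 0.0311 (limma), against 40.8% of all genes called. It did not pass after another scaling between libraries (adjusted p = 0.354 with median-ratio scaling). The difference of 0.32 ± 0.15 between 29 June and 30 October was not called (adjusted p = 0.138, interval 0.01 to 0.63), and 12.4% of all genes were called higher. This interval and those below are 95% intervals without adjustment over genes, so an interval can leave out 0 where no call was made.

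SPL4 was higher in Bac Kan than in Hanoi in July and August, with no call in October. In July the means were 47.0 ± 3.003 and 31.8 ± 3.71 (SD, n = 4 each), without overlap, a log2 difference of 0.55 ± 0.15 (SE, limma, adjusted p = 0.0161), where 5.17% of all genes were called higher in Bac Kan. In August they were 58.4 ± 6.38 and 39.9 ± 5.54, also without overlap, a log2 difference of 0.54 ± 0.15 (SE, limma, adjusted p = 0.012), where 6.4% were called higher. The July call was lost without library 4 of Hanoi (adjusted p = 0.0699) or library 2 of Bac Kan (0.0509), and the August call without library 4 of Hanoi (0.0565) or library 1 of Bac Kan (0.0509). In October the means were 64.3 ± 5.67 and 63.5 ± 5.85, the libraries overlapped, and the interval of the log2 difference ran from -0.29 to 0.33. The mean of the 3 pairs was 0.37 ± 0.09 (SE, limma, adjusted p = 0.00145), where 11.5% of genes were called higher in Bac Kan. A change of the SPL4 site difference between the pairs was not called (adjusted p = 0.105), but it was called without the 8 late May libraries in the fit (adjusted p = 0.0334).

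SPL3 was listed at 0 in 3 of the 28 Bac Kan libraries and in no Hanoi library. In Hanoi it stood at 25.4, 52.7, 62.6 and 49.9 on 24 May and at 46.1, 43.9, 65.6 and 45.6 on 13 July, and these dates overlapped. It stood at 12.7, 22.0, 7.95 and 7.88 on 7 August and at 10.8, 13.9, 4.29 and 23.7 on 10 October, with every library of both dates below those of the earlier dates. Between 13 July and 10 October the mean fell from 50.3 ± 10.3 to 13.2 ± 8.06 (SD, n = 4 each), 3.82-fold, and the log2 level dropped by 2.04 ± 0.69 (SE, limma, adjusted p = 0.0219). In that comparison 8.8% of all genes were called lower. Without library 3 of October the SPL3 call was lost (adjusted p = 0.1), as it was without library 3 of July (adjusted p = 0.055).

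In Bac Kan SPL3 was listed at 0 in 1 library of 31 May and at 1.24, 8.32 and 2.78 in the others, all below the 4 Hanoi libraries of 24 May. It stood at 6.38, 0.594, 6.53 and 8.97 on 29 June and at 13.6, 19.8, 18.6 and 36.5 on 26 July, when every library was above those of 29 June. Then it was at 8.77, 4.03, 4.97 and 9.58 on 15 August and at 1.38, 6.68, 14.6 and 2.56 on 11 September. On 5 October it stood at 4.39, 10.5, 0 and 14.9, and on 30 October at 0.866, 0, 6.71 and 2.32. The 26 July peak is the date on which SPL5 also stood highest in Bac Kan. The test over the Bac Kan dates from 29 June on gave an adjusted p of 0.0145 (limma), against 40.8% of all genes called. This call was lost without library 4 of 26 July (adjusted p = 0.066).

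The site difference of SPL3 after late May was not called in any single pair. In July the Hanoi libraries all stood above the Bac Kan libraries, with means of 50.3 ± 10.3 and 22.1 ± 9.94 (SD, n = 4 each), and the log2 difference was -1.22 ± 0.69 (SE, limma, adjusted p = 0.319, interval -2.62 to 0.18). The July difference became a call with only the groups compared (limma, adjusted p = 0.0217). It was also called with 29 June in place of 26 July (-3.21, adjusted p = 0.00109). In August the means were 12.6 ± 6.66 and 6.84 ± 2.74 with overlap (-0.75, adjusted p = 0.550), and in October the libraries overlapped too (-1.14, adjusted p = 0.256). The mean of the 3 pairs was -1.04 ± 0.40 (SE, limma, adjusted p = 0.0531), just short of a call, and it passed under several alternatives. No change of the site difference between pairs was called for SPL3 (adjusted p = 0.934).

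The second SPL3 homologue, MANES_17G047500, showed a site difference of the same sign in all 4 pairs, with the libraries apart in each. In late May its levels were 22.9, 44.8, 35.4 and 24.9 in Hanoi and 12.4, 6.60, 7.27 and 12.8 in Bac Kan, a log2 difference of -1.61 ± 0.30 (SE, limma, adjusted p = 7.82e-05), where 28.7% of all genes were called. The gene was not picked by that difference, although it was looked at because of its relation to a gene that was. The list that holds it was also chosen with earlier results of these data known. The differences were -0.93 in July (adjusted p = 0.0458), -0.94 in August (adjusted p = 0.0308) and -0.89 in October (adjusted p = 0.0288), and each of these single-pair calls was lost without 1 library in at least 4 of 8 cases. Their mean was -0.92 ± 0.18 (SE, limma, adjusted p = 9.74e-05), a call that held without any single library. For that mean 24.8% of all genes were called and 13.4% called lower. The gene was highest on 13 July in Hanoi, at 53.4, 36.1, 56.5 and 43.9, and fell to 13.8, 11.8, 16.4 and 10.8 by 10 October (a log2 change of -1.77, adjusted p = 1.75e-05). In Bac Kan it fell from 15.2 on 29 June to 4.74 on 30 October by the means (a log2 change of -1.34, adjusted p = 0.00108). Of all genes, 8.8% were called lower in the Hanoi comparison and 9.11% in the Bac Kan comparison. No change of the gene's site difference between the later pairs was called (adjusted p = 0.995).

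**Figure D2:**
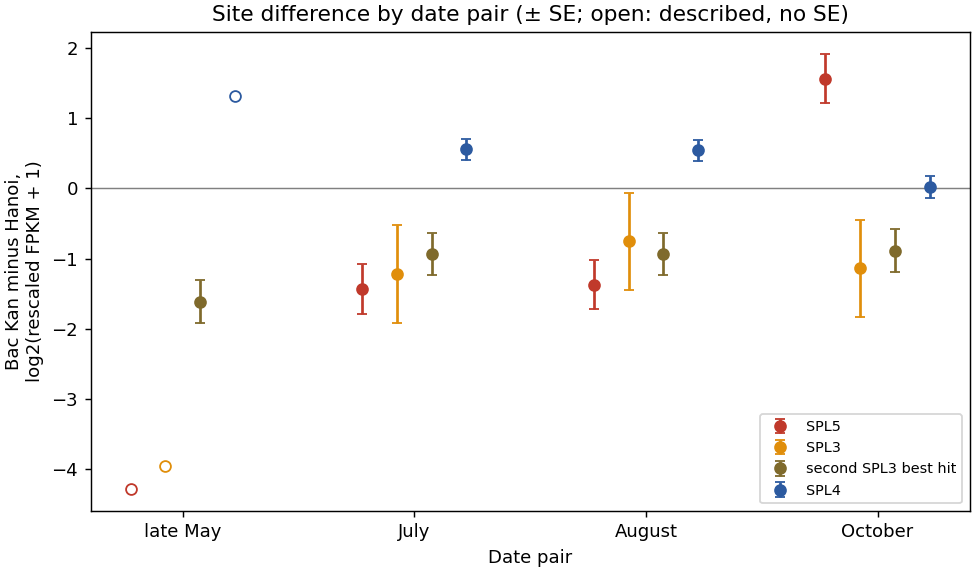
Log2 difference between the sites, Bac Kan minus Hanoi, of the log2(rescaled FPKM + 1) level in the 4 date pairs. Filled points carry the standard error of the limma fit (4 libraries per site and date), and open points are the late May differences that chose the genes, without an error. SPL5 goes from -1.43 in July to 1.56 in October, SPL4 from 0.55 to 0.02, and the second SPL3 homologue stays near -0.9.

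SPL5 and SPL4 exchanged places within single libraries. In Hanoi the level of SPL5 was 32.9 to 88.4 times that of SPL4 on 24 May, 4.87 to 9.21 times on 13 July and 1.18 to 2.35 times on 7 August, and 0.0613 to 0.151 times on 10 October. In Bac Kan the ratio ran from 1.03 to 1.46 on 31 May and from 1.46 to 1.74 on 26 July. On all other Bac Kan dates it was below 1 in every library, from 0.0618 to 0.764. The ratio is taken within a library, so it does not depend on how libraries were scaled. The 3 levels together summed to between 652 and 1060 in the Hanoi libraries of 24 May, with SPL5 the larger share, and to between 79.4 and 88.4 there on 10 October. In Bac Kan the sum lay between 60.96 and 168.8 on every date.

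**Figure D3:**
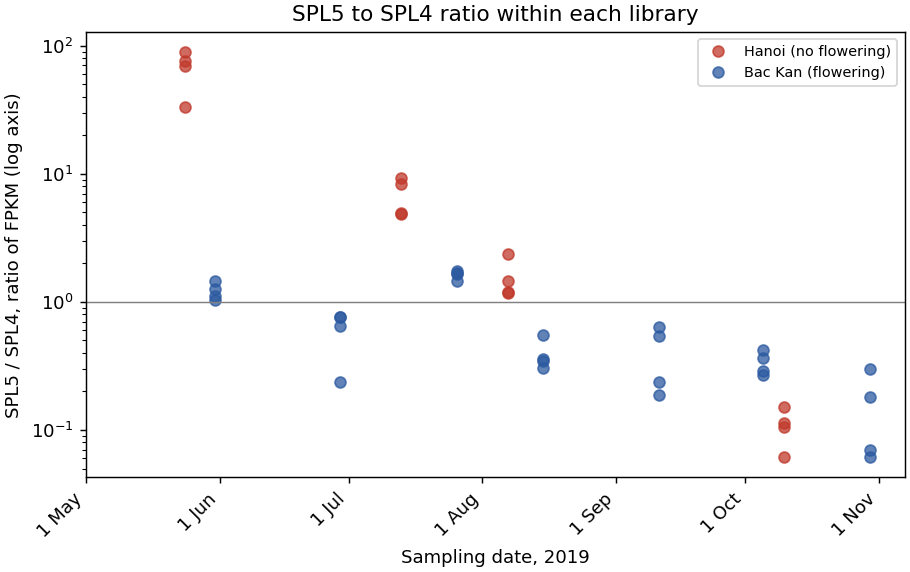
Ratio of the SPL5 level to the SPL4 level in each library, on a log axis, against sampling date in 2019, with 4 libraries per site and date. The grey line marks equal levels. Hanoi runs from 32.9 to 88.4 on 24 May down to 0.0613 to 0.151 on 10 October, and Bac Kan stays between 0.0618 and 1.74.

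As a description over the 11 group means of log2(level + 1), which share the libraries and the scaling, Pearson's r was 0.77 between SPL5 and SPL3, -0.92 between SPL5 and SPL4 and -0.65 between SPL3 and SPL4. Without the 2 late May groups these were 0.78, -0.92 and -0.85. Of 17972 genes with a mean of 5 or more in at least 1 group, the one most like SPL3 was the second SPL3 homologue (r = 0.92). Most like SPL5 were the RIC10 homologue MANES_17G036200 (r = 0.95) and a gene annotated as a methyltransferase, MANES_10G020200 (r = 0.95). The AHP4 homologue MANES_16G073700, a histidine phosphotransfer protein of cytokinin signalling, followed with the same rounded value. Most like SPL4 were the HMG1 homologue MANES_15G114100 (r = 0.97), an enzyme of isoprenoid synthesis, then MANES_15G062600 (r = 0.96) and the NF-YA10 homologue MANES_08G034700 (r = 0.95), a CCAAT-binding factor subunit. Over the 9 means without late May the second SPL3 homologue came after MANES_03G192100 (r = 0.97) and MANES_03G161100 (r = 0.96), at r = 0.93. Over the same means the gene nearest to SPL5 was MANES_02G088400 (r = 0.95), and the gene nearest to SPL4 was the NPX1 homologue MANES_14G054300 (r = 0.99).

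Of the other members of the SPL family, 16 of 17 were tested beside the second SPL3 homologue. In late May 2 were called higher in Bac Kan and 7 lower, in July none, in August 1 higher and 2 lower, and in October 3 higher and 1 lower. Of all genes tested, 16.1% were called higher and 12.6% lower in late May, 5.17% and 3.66% in July, 6.4% and 8.11% in August, and 10.5% and 13.6% in October. The median log2 difference of the 16 family members was -0.31 in late May, against 0.06 over all genes. By limma with only the late May groups, the lower calls of MANES_01G026000 (SPL6, adjusted p = 0.209), MANES_12G010200 (SPL2, 0.181) and MANES_15G019100 (SPL7, 0.142) were lost. So was the higher call of MANES_14G088200 (SPL6, 0.108). Late May calls of MANES_05G010400 and MANES_05G050900 were also lost under alternatives, and those of MANES_01G270700, MANES_05G130100 and MANES_12G009000 were not. Of these 16 genes, 3 had an unadjusted p under 0.05 in July by limma. The SPL10 homologue MANES_05G050800 was listed at 0 in all 44 libraries, and the SPL9 homologue MANES_09G032800 never exceeded 1.78.

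SPL8, in Arabidopsis a regulator of anther development that miR156 does not target, has a pair of homologues that were called lower in Bac Kan in late May and higher there in October. MANES_01G270700 averaged 5.36 in Bac Kan and 14.9 in Hanoi in late May (-1.31, adjusted p = 0.0104, limma) and 2.87 and 10.6 in August (-1.67, adjusted p = 0.00231), with no call in July (0.61, adjusted p = 0.398). In October the Bac Kan mean was 9.88 and the Hanoi mean 1.76 (1.88, adjusted p = 0.000348). The change over the 3 later pairs was called (adjusted p = 3.28e-05), and that of MANES_05G050900 was called too (adjusted p = 0.00444). The latter stood at 6.32 on average in Bac Kan in October and between 0 and 1.74 in Hanoi. In late May it averaged 3.69 and 10.3 (-1.28, adjusted p = 0.0303), a difference not called at a pseudocount of 0.1 (adjusted p = 0.187) or without library 2 or 3 of either site (0.0508 to 0.0891).

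Among the other family members, the SPL12 homologue MANES_01G233400 averaged 26.5 in the October libraries of Bac Kan and 13.2 in those of Hanoi (0.97, adjusted p = 9.03e-06, limma). The SPL1 homologue MANES_05G010400 averaged 63.1 and 109.5 there (-0.79, adjusted p = 4.84e-07). It was also called lower in late May (-0.37, adjusted p = 0.00859), but not when the fit held the late May groups alone (adjusted p = 0.143). The SPL7 homologue MANES_03G189400, a copper-response regulator in Arabidopsis, averaged 51.1 and 21.2 in August (1.2, adjusted p = 0.00023). In late May the SPL14 homologue MANES_05G130100 averaged 26.4 and 42.9 (-0.67, adjusted p = 0.000143) and the SPL13B homologue MANES_12G009000 averaged 3.95 and 0.691 (1.58, adjusted p = 0.000957).

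**Figure D4:**
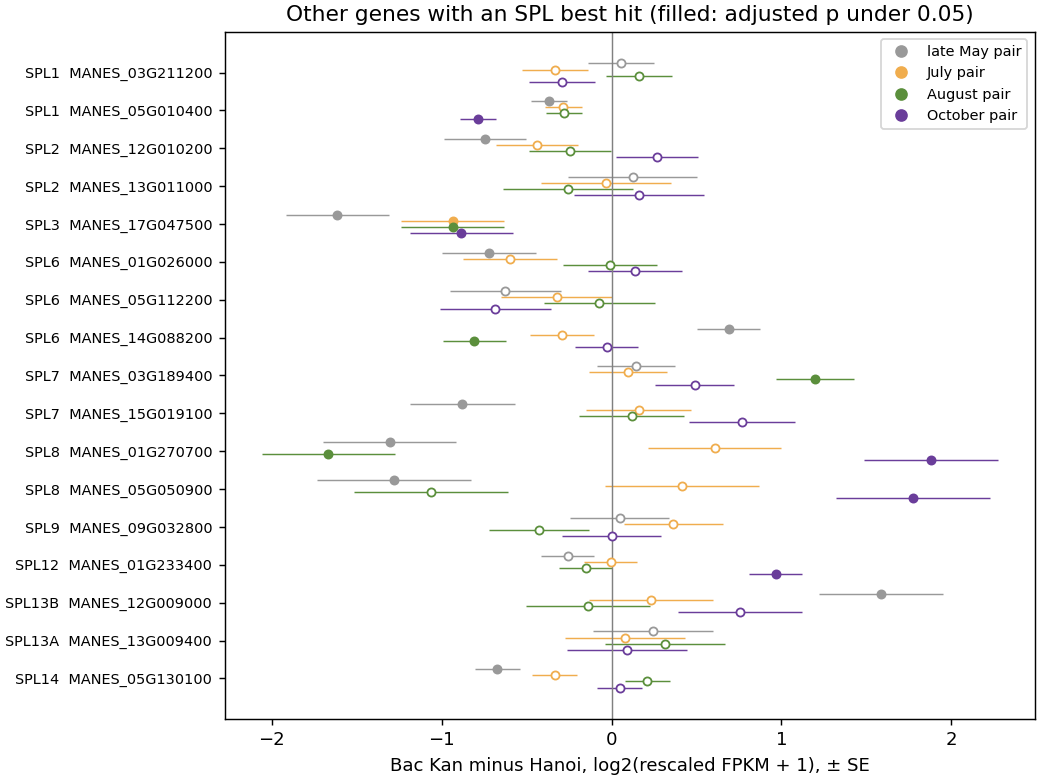
Log2 difference between the sites, Bac Kan minus Hanoi, of the log2(rescaled FPKM + 1) level in 17 other genes with an SPL best hit, with standard errors from the limma fit and 4 libraries per site and date. Colours mark the 4 date pairs, and filled points have an adjusted p under 0.05. Both SPL8 homologues lie left of 0 in late May and August and right of 0 in October, and the second SPL3 homologue lies left of 0 in all 4 pairs.

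Genes that act before and after the SPL genes were taken as a list by their Arabidopsis names, 67 of 92 tested, counting the 17 SPL genes above. Across the whole list 7 were called higher in Bac Kan and 15 lower in late May, 2 and 1 in July, 6 and 4 in August, and 9 and 6 in October. The list medians were -0.10, 0.01, -0.01 and 0.13 on the log2 scale, against 0.06, 0.06, -0.06 and -0.05 over all genes. The shares called among all genes were 16.1% higher and 12.6% lower in late May, 5.17% and 3.66% in July, 6.4% and 8.11% in August, and 10.5% and 13.6% in October.

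Upstream of miR156, 17 of 22 genes were tested, and in late May 1 was called higher and 5 lower in Bac Kan, where 16.1% and 12.6% of all genes were. Among these were 1 copy of TPS1, which makes the sugar signal trehalose 6-phosphate, MANES_03G079000 (11.8 against 21.1 in Hanoi, adjusted p = 0.0144, limma), and VAL2, a repressor of miR156 genes in Arabidopsis, MANES_17G039700 (6.87 against 15.0, adjusted p = 0.0174), although not when the fit held the late May groups alone (adjusted p = 0.135). In July 0 were called by limma, with 1 at an unadjusted p under 0.05. Of all genes, 5.17% were called higher and 3.66% lower in July. In August and October 1 gene each was called, both higher in Bac Kan, as were 6.4% and 10.5% of all genes: another TPS1 copy, MANES_15G098800 (0.74, adjusted p = 0.00731), and the sugar sensor HXK1, MANES_16G109200 (0.64, adjusted p = 0.00731). Each TPS1 call was lost under at least 1 alternative. The AGL18 homologue MANES_05G188100, also called lower in late May (adjusted p = 0.00967, limma), was listed at 0 in the 4 Bac Kan libraries. It was at 0 in 2 of the 4 Hanoi libraries as well, so the call rests on the others.

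Of 11 genes that make microRNAs or act with them, 0 were called higher and 2 lower in late May, 0 in July (limma, 1 at an unadjusted p under 0.05), 1 lower in August, and 3 higher and 1 lower in October. The shares among all genes were 16.1% and 12.6% in late May, 5.17% and 3.66% in July, 8.11% lower in August, and 10.5% and 13.6% in October. The gene lower in October was DCL1, which cuts microRNAs from their precursors, MANES_05G015200. It averaged 9.35 ± 2.39 in Bac Kan and 33.0 ± 3.95 in Hanoi (SD, n = 4 each), a log2 difference of -1.74 ± 0.22 (SE, limma, adjusted p = 1.15e-07). In late May AGO1, which carries microRNAs to their targets, MANES_02G219700, averaged 24.5 and 33.6 (-0.44, adjusted p = 0.0266), and this was not called when the fit held the late May groups alone (adjusted p = 0.152). Apart from that of DCL1, every call counted in this group was lost under at least 1 alternative.

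Of 8 AP2-like genes, repressors of flowering that miR172 holds down in older shoots, 1 was called higher in each of the first 3 pairs and 1 lower in October. Of all genes, 16.1%, 5.17% and 6.4% were called higher in those 3 pairs and 13.6% lower in October. The late May gene was the TOE1 homologue MANES_10G041100 (8.65 against 1.16 in Hanoi, 2.29, adjusted p = 9.07e-05, limma), whose call was lost when only its most abundant transcript was used (adjusted p = 0.0883). In July and August it was an AP2 homologue, MANES_07G101700 (0.98, adjusted p = 0.0108, and 1.16, adjusted p = 0.00123), and the July call was lost when the fit held that pair alone (adjusted p = 0.148).

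Partners and targets of SPL proteins in flowering held 14 tested genes of 33. In late May 3 were called higher, in July 1, in August 3, and in October 2 higher and 2 lower. Of all genes, 16.1%, 5.17% and 6.4% were called higher in the first 3 pairs, and 10.5% higher and 13.6% lower in October. FUL, a floral MADS-box gene that SPL proteins bind in Arabidopsis, was among them in the first 3 pairs, as MANES_02G059300 in late May (20.6 against 7.33, 1.43, adjusted p = 1.58e-05, limma) and as MANES_14G088500 later. The latter stood at 45.6 ± 8.20 (SD, n = 4) in Bac Kan and between 0 and 18.4 in Hanoi in July (3.86, adjusted p = 0.000121), and at 99.4 ± 5.18 and 15.4 ± 7.36 in August (2.76, adjusted p = 0.003), which did not pass at a pseudocount of 0.1 (adjusted p = 0.0883). The same July and August pairs had SPL5 lower and SPL4 higher in Bac Kan.

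The DELLA repressor RGA, which binds SPL proteins, was higher in late May as MANES_15G130800 (71.5 against 28.4, 1.36, adjusted p = 8.5e-07, limma). FT, which encodes the leaf-made flowering signal, was higher in August as MANES_13G000800 (6.92 against 0.588, 2.38, adjusted p = 0.0116). In October it was higher as MANES_12G001600, listed at 0 in all Hanoi libraries and between 1.41 and 11.0 in Bac Kan, and as MANES_13G000800 (2.60, adjusted p = 0.00329). SOC1, a floral integrator, was lower in October as MANES_05G041900 (104.2 against 238.7, -1.18, adjusted p = 6.22e-05), a call lost when only its most abundant transcript was used (adjusted p = 0.454).

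Markers of other tissues were read beside these levels. Of the homologues of STM and KNAT1, which define the shoot meristem, both of STM and 1 of KNAT1 were at 0 in all libraries, and the other KNAT1 homologue reached at most 1.25. These are part of the 31 markers of meristem and dividing tissue, others of which were above 0 on every date, with sums of up to 36.2. Secondary wall and xylem markers, 31 genes, summed to between 7.13 and 14.4 in Hanoi and between 0.627 and 2.097 in Bac Kan in late May, the pair with the widest SPL5 difference. They overlapped between the sites in July, at 6.15 to 24.4 in Hanoi and 14.2 to 28.4 in Bac Kan, in August and in October. Within Hanoi the sum was 4.67 to 8.79 on 7 August and 0.230 to 2.57 on 10 October, the latter wholly below the earlier dates. Within Bac Kan it was 7.65 to 12.2 on 29 June and 1.56 to 3.78 on 30 October. On 26 July, when SPL5 and SPL3 peaked in Bac Kan, this sum was the highest of the Bac Kan dates. Floral organ markers, 18 genes, summed to between 22.4 and 80.0 on all dates but 30 October in Bac Kan, where they reached 82.3 to 151. The part of these tissues in the SPL levels was not tested.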

How the data were processed

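The authors aligned paired reads with TopHat2 and deposited FPKM in 11 tables, 1 per site and date, each with 41491 transcripts, per the submitters' processing notes and the file headers. The sources used here name no version, quantifier, genome build or annotation, and comparisons between groups cross tables. Sites and dates were taken from the sample titles, and for the 4 Bac Kan samples of 5 October from the description. The characteristics were not used for this, since they gave another date for 40 samples and another site for 16. Libraries are numbered by column order, which carries no pairing, and 1 column of another date was not used. FPKM were summed per gene ID and rescaled to 1000000 per library. A gene was tested when 4 or more of the 44 libraries had it at 1 or above, which left 23405, as log2(x + 1), with limma 3.58.1 (R 4.3.3) in 1 fit over 11 groups, variances following a trend with level, Benjamini-Hochberg adjustment, two-sided, threshold 0.05. The fit was also run on simulated data with known changes, and it missed more of the smaller changes than of the larger ones. A gene that was not called may therefore still differ.

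The 3 genes, the pathway lists and the marker lists were chosen with earlier results of these data known. Gene names are those of the Arabidopsis best hit, which does not separate close copies. The genes named are the 3 homologues, every gene with an SPL best hit that is described, up to 4 called genes per pair of each other list with the smallest adjusted p, and the 5 genes most like each homologue by Pearson's r, from which the text draws. The alternatives were pseudocounts of 0.1 and 5, no filter, median-ratio scaling, unscaled FPKM, the most abundant transcript only, only the groups compared, no late May libraries, each library left out, and 29 June in place of 26 July in Bac Kan. Positions and sequences were not used here.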

Additional observations from a re-analysis of the deposited data

Results flagged for a closer look

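The site difference of SPL5 (MANES_03G106900) changed over the July, August and October pairs, from lower to higher in Bac Kan (limma F test, adjusted p = 1.3e-05). Within 33 groups of 4 libraries, SPL5 on 31 May in Bac Kan had 1 low library, at 30.3 against 43.7 to 44.1 in the others, and SPL3 (MANES_16G029900) on 13 July in Hanoi had 1 high library, at 65.6 against 43.9 to 46.1. Chance alone marks about 1 in 20 such groups.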

How the results depend on the processing

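No paired analysis was possible because the columns carry no replicate number. SPL5 kept its direction in late May, and its direction and call in the July, August and October pairs, between dates and in the change between pairs under all alternatives run, and its mean over the 3 later pairs became a call with a pseudocount of 5 (-0.48, adjusted p = 0.0335) and with only the groups compared (-0.41, adjusted p = 0.0367). SPL3 in late May moved to -5.08 with a pseudocount of 0.1 and to -2.74 with 5. Its July difference became a call with only the groups compared (-1.22, adjusted p = 0.0217) and with 29 June in place of 26 July (-3.21, adjusted p = 0.00109). Its mean over the pairs became one with a pseudocount of 5 (-0.74), unscaled FPKM (-1.0), only the groups compared (-1.04) and no late May libraries (-1.04), and ranged from -1.2 to -0.76 with single libraries left out, a call without library 4 of 26 July, library 2 or 4 of 5 October or library 3 of 10 October. With a pseudocount of 0.1 the SPL3 calls were lost for the Hanoi change from July to October (-2.14, adjusted p = 0.168), the Bac Kan dates (adjusted p = 0.0663) and the Hanoi dates (adjusted p = 0.233). With single libraries left out these ran from -2.37 to -1.63, from 0.00378 to 0.066 and from 0.0186 to 0.0757, the last no longer a call without library 3 of 13 July.

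The SPL4 July call was lost with only the groups compared (0.55, adjusted p = 0.053) and ranged from 0.47 to 0.61 with single libraries left out, and August from 0.46 to 0.62. In October, where no difference was called, the sign turned with unscaled FPKM (-0.01) and without library 2 of Bac Kan (-0.03) or library 4 of Hanoi (-0.04), in a range from -0.04 to 0.07. The change of the SPL4 difference between pairs was called with only the groups compared (adjusted p = 0.0432) and without late May (adjusted p = 0.0334). The SPL4 call over Bac Kan dates was lost with median-ratio scaling (adjusted p = 0.354) and unscaled FPKM (adjusted p = 0.218), and with single libraries left out it ran from 0.019 to 0.0888, lost without library 1, 3 or 4 of 26 July or library 2 or 4 of 30 October.

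Of the pathway counts, with only the groups compared the late May calls went to 4 higher and 5 lower and the July calls higher to 1. With single libraries left out, late May lower ran from 7 (without library 3 of Hanoi) to 15 and was 9 without library 2 of Bac Kan, July higher from 1 to 3, July lower from 0 to 1 and August lower from 2 (without library 2 or 3 of Hanoi) to 6. July lower was 0 with a pseudocount of 0.1, without the filter and with the most abundant transcript, and 3 with median-ratio scaling. With 29 June it was 4, as was July higher. Of 44 other calls of named genes in the pairs, 22 were lost under at least 1 alternative. The cause was not tested. The late May call of AGL18 was counted as not lost, although the gene was fitted in only 6 of the 8 cases with a library left out. Without read counts, scatter at low levels, as in SPL3, cannot be split into counting error and differences between plants.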
